A study of Caenorhabditis elegans with 2 samples.

Results

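The genes mlt-8, mlt-9, mlt-10, mlt-11, bli-5, nas-36, nas-37 and acn-1 encode secreted or cell-surface proteins that C. elegans larvae need to build a new cuticle and leave the old one. They were chosen by symbol, as 8 of the 19973 protein-coding genes of the Ensembl WBcel235 gene models. The rule uses no measured value, but the set was drawn up with earlier results of these data known. Binding of NHR-23 near them was mapped by ChIP-seq, which sequences the DNA that is immunoprecipitated with a protein. The animals were strain OP43, with the allele unc-119(ed3) on chromosome III and the inserted transgene wgIs43, through which NHR-23 carries eGFP. Whole L3 larvae of pooled sexes were used, in 2 biological replicates of 1 group, and the labels give the stage as the only measure of age. All samples share the transgene, and no untagged strain, other stage or treatment was analysed here. Signal from every tissue is summed in whole animals, so binding in the epidermis, which makes the cuticle, and binding elsewhere cannot be told apart.

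Nematodes shed their cuticle at the end of each larval stage. The epidermis first detaches from the old cuticle, then secretes a new one beneath it, and secreted proteases finally loosen the old cuticle so that the animal can crawl out. Protease inhibitors of the Kunitz type restrain such digestion, and loss of any of these activities leaves animals trapped in old cuticle or blistered. NHR-23, a nuclear receptor of the ROR family, is required for molting and recognises the hexamer AGGTCA or GGGTCA, usually preceded by an AT-rich stretch.

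Of these genes, mlt-8, mlt-9 and mlt-10 are named for the molting defect that follows their loss, and mlt-10 gave its name to a family of nematode proteins, the mltn genes. The inhibitors are mlt-11, with many Kunitz domains, and bli-5, with a Kunitz-type domain, whose mutants have blistered cuticle. The proteases nas-36 and nas-37 are astacin metalloproteases, and NAS-37 is needed to open the old cuticle at ecdysis. ACN-1 resembles angiotensin-converting enzyme but lacks the residues of its active site.

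The peaks were read from 4 lists. The thresholded list held 4944 peaks with signal values from 34.23 to 967.1 (median 60.42). Signal is the authors' own value for each peak and is compared here only within a list. The pooled list held 30000 peaks, replicate 1 had 30000 and replicate 2 had 27191. The pooled list is labelled as peaks and background, so a weak peak or summit in it need not be binding. The thresholded peaks were the 4944 strongest of the pooled list, and the next pooled peak had a signal of 34.21. A pooled peak just below this value is therefore close in strength to the weakest thresholded one. No list gives read counts, so the depth behind a peak is unknown and no interval can be given. With 1 group there is no comparison between conditions and no test. Counts are set beside the share of all protein-coding genes that meet the same rule.

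The summit of a peak is its highest point. Positions are given in bp from the nearest annotated start of the named gene, negative upstream. The genes mlt-9 and nas-37 have 2 annotated starts and mlt-11 has 4, so their positions need not share an origin. A total of 19 thresholded summits lay within 10 kb of 7 of the 8 genes, with signal ranks from 310 to 4442 (median 2728). The background share is 57.4% of all genes, so a summit within 10 kb is common. In the promoter window, taken as 1500 bp before any annotated transcript start and 500 bp after it, only mlt-9 had a thresholded summit, 1 of 8 genes, where the background is 19.4%. From 1500 to 5000 bp upstream, a band chosen after the distances were seen, mlt-8, mlt-10, mlt-11, nas-37 and acn-1 had one, 5 of 8 genes, where the background is 18.0%. None of these 5 had a thresholded summit in the promoter window, a combination found at 2205 genes (11%).

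The sequences around 9 of these summits show what lay at all 8 upstream band summits and at the promoter peak of mlt-9. Each is 101 bases of the WBcel235 assembly (ce11) centred on the summit, read 5′ to 3′ on the strand of the gene. Capitals mark AGGTCA or GGGTCA read from the other strand, the longer ROR element at mlt-8, or GAGAGA read from the other strand at mlt-9 and at the mlt-11 summit at −2005 bp. The sequences of mlt-10 and of mlt-11 at −2210 bp hold none of these.

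mlt-8 upstream, chrII:574206-574306, minus strand: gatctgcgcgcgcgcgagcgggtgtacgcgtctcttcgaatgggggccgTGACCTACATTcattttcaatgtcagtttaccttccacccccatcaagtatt

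mlt-9 promoter, chrX:15107930-15108030, minus strand: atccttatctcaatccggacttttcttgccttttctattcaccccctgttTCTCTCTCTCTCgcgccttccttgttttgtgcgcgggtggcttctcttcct

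mlt-10 upstream, chrII:542556-542656, plus strand: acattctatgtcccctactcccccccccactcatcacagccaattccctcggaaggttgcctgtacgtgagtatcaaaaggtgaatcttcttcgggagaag

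mlt-11 upstream, −4518 bp, chrV:20662637-20662737, plus strand: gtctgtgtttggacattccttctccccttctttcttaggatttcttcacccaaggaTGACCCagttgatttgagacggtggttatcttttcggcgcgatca

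mlt-11 upstream, −2210 bp, chrV:20664945-20665045, plus strand: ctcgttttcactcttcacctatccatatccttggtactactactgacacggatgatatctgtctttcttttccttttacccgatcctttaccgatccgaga

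mlt-11 upstream, −2005 bp, chrV:20665150-20665250, plus strand: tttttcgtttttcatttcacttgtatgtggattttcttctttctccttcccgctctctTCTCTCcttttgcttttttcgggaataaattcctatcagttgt

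nas-37 upstream, chrX:9952311-9952411, minus strand: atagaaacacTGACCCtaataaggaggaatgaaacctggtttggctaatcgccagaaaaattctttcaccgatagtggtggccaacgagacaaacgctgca

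acn-1 upstream, stronger summit, chrX:5099066-5099166, minus strand: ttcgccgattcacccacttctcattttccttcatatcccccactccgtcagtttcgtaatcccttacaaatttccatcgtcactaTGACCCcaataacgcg

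acn-1 upstream, weaker summit, chrX:5099967-5100067, minus strand: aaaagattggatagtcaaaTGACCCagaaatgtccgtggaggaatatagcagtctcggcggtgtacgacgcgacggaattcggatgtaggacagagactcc

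Free upstream sequence, nearest starts and location classes, here and below, consider protein-coding genes only. The mlt-8 gene (WBGene00021095, chromosome II, 569210 to 572110, minus strand) has 1 annotated start and 2812 bp of free sequence upstream. Its stronger summit lay in that sequence at −2146 bp, at position 574256, with a pooled signal of 97.25 (rank 1084). The same place had a signal of 35.95 in replicate 1 (rank 1725) and 66.5 in replicate 2 (rank 759), so both replicates placed it high, with summits 54 bp and 1 bp away. This summit is 667 bp from the end of W08F4.7, the next gene upstream on the same strand. No other protein-coding gene has a start closer to it than mlt-8. The weaker summit, with a signal of 58.6 (rank 2571), lay at +3236 bp, beyond the 3′ end of mlt-8, in the 5′ UTR of W08F4.5 and 2 bp from its start. It ranked 2421 and 2606 in the replicates, which is close to equal.

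The mlt-9 gene (WBGene00008605, chromosome X, 15101786 to 15107797, minus strand) was the 1 gene with a thresholded promoter summit. That summit lay at −183 bp with a signal of 51.47 (rank 3102), which is below the median of the list. Replicate 1 gave 18.68 (rank 4613), with its summit 90 bp away, and replicate 2 gave 37.83 (rank 2252) at the same base. The stronger summits of mlt-9 were inside the gene, in introns, at +2473 bp (signal 68.29, rank 2048) and +3049 bp (signal 88.17, rank 1313). The one at +3049 bp ranked 1515 and 1200 in the replicates. The one at +2473 bp ranked 12965 in replicate 1 and 803 in replicate 2, far stronger in the list of replicate 2. Within 50 bp of it lies a run of alternating T and G of 16 bp, and 1.68% of all thresholded summits have a dinucleotide run as long. The part of the repeat in that difference was not tested.

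The mlt-10 gene (WBGene00015646, chromosome II, 546705 to 552032, plus strand) lies 17177 bp from mlt-8. It has no free upstream sequence, because T27A1.3 on the same strand runs across its start. Its single thresholded summit lay in an intron of T27A1.3 at −4099 bp, at position 542606, with a signal of 70.15 (rank 1962). The replicates gave 25.54 (rank 2973) and 43.11 (rank 1826), each with the summit 7 bp away. Although the peak lies inside T27A1.3, the nearest protein-coding start is that of mlt-10. A run of 9 identical bases lies within 50 bp of it, a length reached at 2.47% of summits.

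The inhibitor gene mlt-11 (WBGene00012186, chromosome V, 20667205 to 20678537, plus strand) is the longest of the 8 at 11333 bp, and had the most summits. There were 5 thresholded and 32 pooled summits within 10 kb. As many thresholded summits were found at 3.94% of genes, and as many pooled ones at 0.305%. Per kb of the surveyed sequence, which takes the length into account, mlt-11 had 1.021 pooled summits, a density reached by 1.48% of genes, beside a median of 0.2348.

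**Figure D1:**
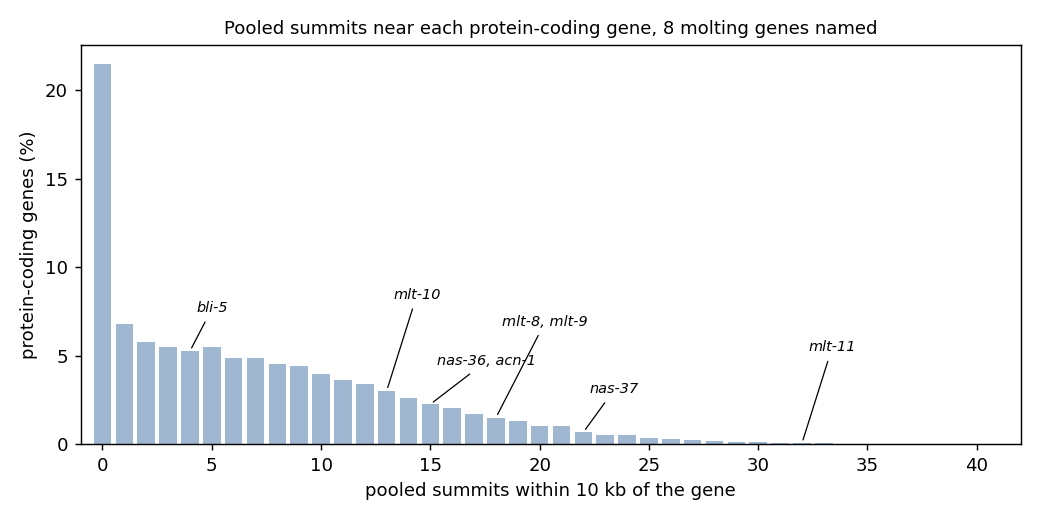
Share of protein-coding genes, in percent, by the number of pooled summits within 10 kb, with the 8 genes named at their own counts. The median over all genes is 5, bli-5 has 4, and the others have from 13 (mlt-10) to 32 (mlt-11).

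Of the upstream summits of mlt-11, the strongest lay at −4518 bp with a signal of 90.13 (rank 1262), and ranked 1563 and 1044 in the replicates. The start nearest to it is that of the upstream gene W01F3.2, which is 2362 bp away and on the same strand, and the summit lies past the end of that gene. Closer to mlt-11 were summits at −2210 bp (signal 51.16, rank 3129) and −2005 bp (signal 42.1, rank 3946), only 205 bp apart. At −2210 bp replicate 2 had a peak of 33.31 (rank 2699) and replicate 1 had none, the only one of the 19 summits missing from a replicate list. At −2005 bp the order was the opposite, with 29.41 (rank 2423) in replicate 1 and 12.99 (rank 7675) in replicate 2.

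A further summit of mlt-11 lay in its coding sequence at +5700 bp (signal 43.76, rank 3762), ranked 11610 in replicate 1 and 3170 in replicate 2. The last lay at +11591 bp, past the end of the gene, with a signal of 42.1 (rank 3945) and replicate ranks of 1975 and 6724. Only the summit at −4518 bp was thus placed among the strongest 4944 peaks by both replicates.

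The other inhibitor gene, bli-5 (WBGene00000255, chromosome III, 13427640 to 13429768, minus strand), had a single thresholded summit and the fewest pooled summits, 4 within 10 kb, a number reached by 60.4% of genes. The thresholded summit was strong, with a signal of 108.6 (rank 868), and ranked 844 and 1012 in the replicates. It lay at +6141 bp, in the 5′ UTR of exo-1, a DNA repair exonuclease gene, and 113 bp from the start of exo-1. Between this summit and bli-5 lie most of exo-1 and most of the gene cope-1, which overlaps the 3′ end of bli-5. In the promoter window of bli-5 neither the pooled list nor replicate 1 had a peak, and replicate 2 had a weak one of 4.355 (rank 18221) at −56 bp. The strongest pooled summit inside bli-5 had a signal of 18.11 (rank 9328).

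The protease genes nas-36 and nas-37 differed in their surroundings. nas-36 (WBGene00003552, chromosome I, 7527224 to 7531715, plus strand) was the only one of the 8 with no thresholded summit within 10 kb. The nearest lay at +15089 bp. The pooled list nevertheless had 15 summits within 10 kb of it, as many as acn-1, and the strongest lay in the promoter at −50 bp, with a signal of 28.65 (rank 5946). The replicates placed this weaker summit at rank 19150 (signal 6.141, −105 bp) and rank 9571 (signal 10.06, −51 bp). The gene upstream, goa-1, a G protein subunit gene on the same strand, ends 507 bp before nas-36. By replicate 1 alone, 2 of the strongest 4944 peaks were within 10 kb, at −8228 bp (signal 28.4, rank 2557) and at +8783 bp (signal 19.4, rank 4400). The pooled list had no summit at the first of these places, its farthest upstream summit within 10 kb being at −7068 bp. At the second it had only 20.47 (rank 8293).

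nas-37 (WBGene00003553, chromosome X, 9944844 to 9949063, minus strand) had 3 thresholded and 22 pooled summits within 10 kb, and 3.29% of genes had as many pooled ones. The strongest of all 19 summits was among them, at −9670 bp, with a signal of 168.7 (rank 310), and ranked 245 and 423 in the replicates. It lies close to another gene, ZC506.1, at −227 bp from that start. The summit at −3298 bp was the one in the free sequence upstream of nas-37, with a signal of 37.91 (rank 4421). Replicate 1 gave 13.56 (rank 7046) and replicate 2 gave 29.77 (rank 3161), so only replicate 2 placed it among its strongest 4944. The nearest start is that of cysl-1, a gene of the cysteine synthase family, 2172 bp away, and the summit lies past the end of cysl-1. The summit at +10772 bp (signal 49.58, rank 3251) lay at −514 bp from C17G1.5 and ranked 4015 and 2748 in the replicates.

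acn-1 (WBGene00000039, chromosome X, 5092481 to 5097067, minus strand) had 4 thresholded summits. The strongest lay at −2049 bp with a signal of 127.3 (rank 609), the highest among the summits 1500 to 5000 bp upstream of the 8 genes. Replicate 1 gave 36.63 (rank 1664) and replicate 2 gave 92.57 (rank 333), so both placed it high, replicate 2 higher. A weaker summit at −2950 bp had a signal of 37.76 (rank 4442), with replicate ranks of 5887 (summit 102 bp away) and 3473. Both lie in the 3974 bp between acn-1 and vit-2, a yolk protein gene transcribed in the other direction, and both are nearer to the start of vit-2, at −1926 bp and −1025 bp from it. A peak here cannot be assigned to either gene from its position.

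In the intron of acn-1, at +886 bp, was a summit of 39.02 (rank 4287). The replicate 1 peak there ranked 5251, with its summit 1 bp away. That of replicate 2 ranked 4198, with its summit 120 bp away, at +766 bp. A pooled summit below the threshold lay at +686 bp (27.62, rank 6179), so the replicate 2 peak cannot be assigned to either with certainty. A run of 12 identical bases lies within 50 bp of the summit at +886 bp, a length reached at 0.283% of summits, and its part in the peak was not tested. The fourth summit, at +11476 bp (signal 56.44, rank 2728), lay at −1065 bp from ets-5, a transcription factor gene, and ranked 2121 and 3842.

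**Figure D2:**
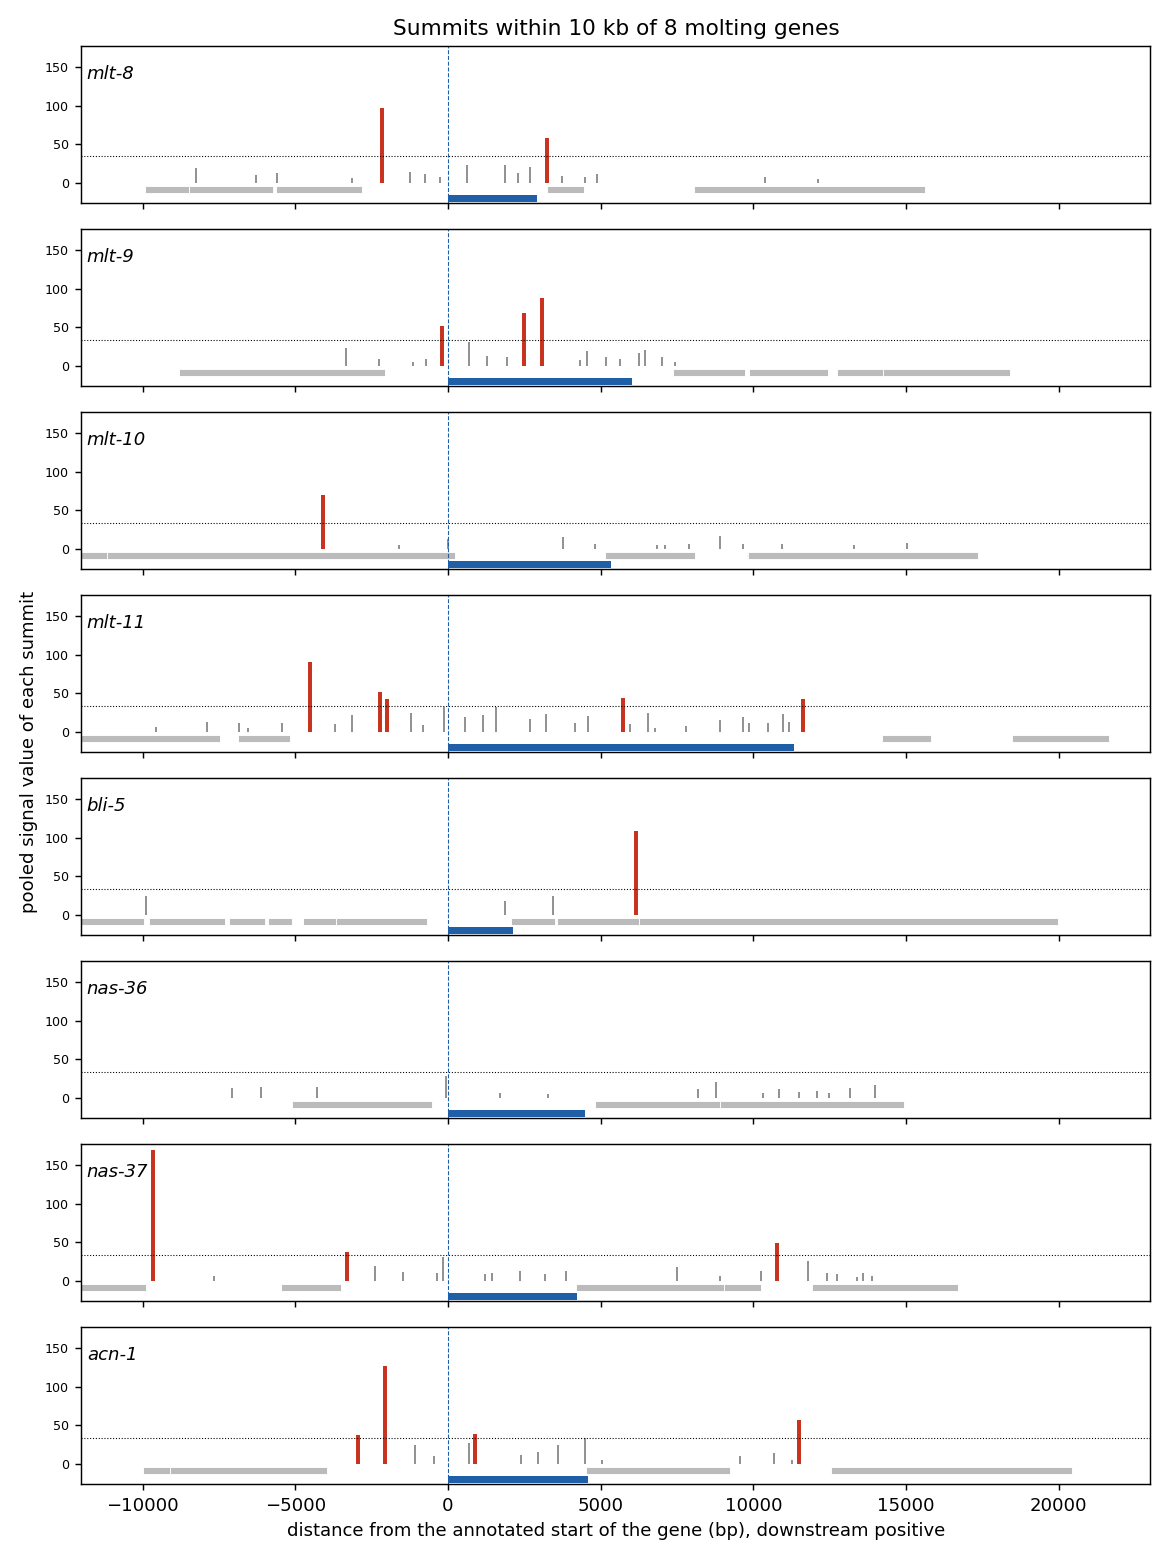
Peaks around each of the 8 genes, by distance from the outermost annotated start in bp (downstream positive) and pooled signal value. Some summits of mlt-9, mlt-11 and nas-37 therefore stand slightly off their positions in the text, such as +3049 bp of mlt-9, drawn at 3077 bp. Red lines are thresholded summits, thin grey lines are weaker pooled summits, the blue bar is the gene, grey bars are neighbouring genes, and the dotted line is the lowest thresholded signal, 34.23. The tall lines of mlt-8, mlt-10, mlt-11 and acn-1 stand upstream of the start, nas-36 has none, and the tallest, 168.7, lies close to the neighbour of nas-37.

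By location, 12 of the 19 summits were intergenic, 4 were in introns, 2 in 5′ UTRs and 1 in coding sequence. Over all thresholded summits these classes held 66.9%, 23.6%, 4.21% and 3.22%. By the nearest start, 9 of the 19 summits belonged to the molting gene itself and 10 to another gene. When a summit counted only for the closest start within 3000 bp, 4 genes had one (mlt-8, mlt-9, mlt-11 and acn-1), beside 17.0% of all genes. Widening the promoter window to 3000 bp upstream gave the same 4 genes beside 24.8%, and narrowing it to 500 bp upstream left mlt-9 alone beside 13.8%. Inside the gene, mlt-9, mlt-11 and acn-1 had a thresholded summit, 3 of 8 beside 5.95%. A longer gene has more room for such a summit, and this share does not take gene length into account.

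The median distance from a start to the nearest thresholded summit was 2722 bp for the 8 genes and 8497 bp for all protein-coding genes. Free upstream sequence was also longer. Its median was 2436.5 bp for the 8 genes and 936 bp for all. Among the 6295 genes with at least 2000 bp of free upstream sequence, 1157 (18.4%) had a thresholded summit from 1500 to 5000 bp upstream. Of the 5 molting genes with that much room, 4 did. They were mlt-8, mlt-11, nas-37 and acn-1, and mlt-9 did not. At nas-37 and acn-1 the band summits are nearest to the start of another gene. The limit of 2000 bp, like the band, was not set beforehand.

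**Figure D3:**
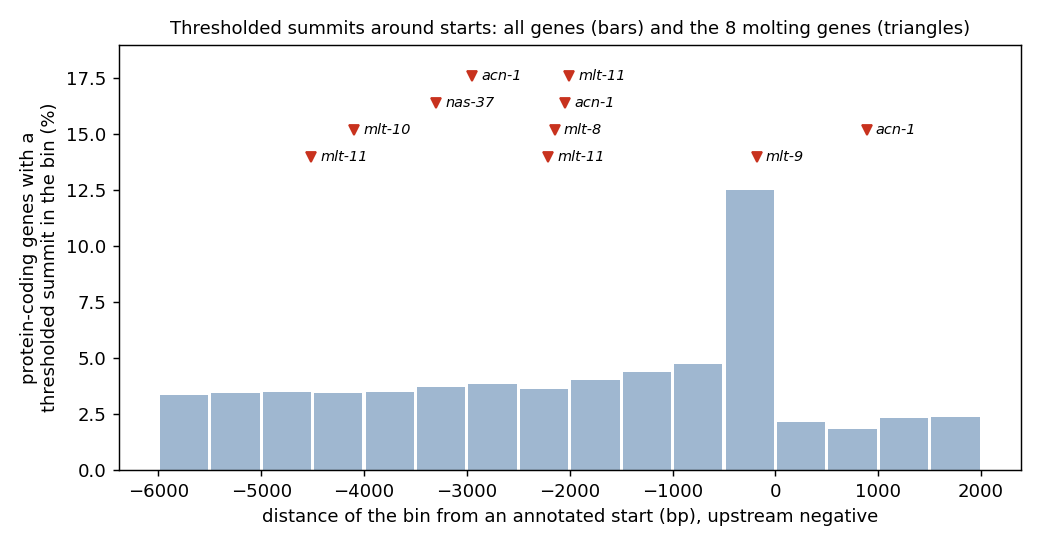
Share of all protein-coding genes, in percent, with a thresholded summit in each 500 bp bin around an annotated start (bars, upstream negative), with the summits of the molting genes as red triangles, whose height has no scale. Over all genes the last 500 bp upstream stand out at 12.5%, where mlt-9 has its summit. In the bin from −2500 to −2001 bp, 3 of the 8 genes (mlt-8, mlt-11 and acn-1) have one, beside 3.64% of all genes. That bin is the one with the most of the 8 genes and was not chosen beforehand.

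Weaker entries of the pooled list, which by its label includes background, lay in most of the promoter windows. Any pooled summit in the promoter window was found at 7 of the 8 genes, all but bli-5, beside 42.2% of all genes. At the same 7 each of the pooled, replicate 1 and replicate 2 lists had some summit in the window, beside 34.9%. This rule does not ask that the summits lie at the same place, so it does not show that a peak recurred. Of the strongest pooled promoter summits, all but that of mlt-9 were below the threshold. At mlt-11 the strongest was 32.24 (rank 5293) at −137 bp, just below the threshold, and replicate 1 gave 23.11 (rank 3464) at −95 bp and replicate 2 gave 17.31 (rank 5870) at −700 bp.

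At nas-37 the promoter summit was of like strength, 31.66 (rank 5392) at −150 bp. The strongest there in replicate 1 was at −100 bp (rank 25064) and in replicate 2 at −150 bp (rank 6287). At acn-1 the strongest was 25.02 (rank 6808) at −1096 bp. In the replicates it was at −1188 bp (rank 9161) and −1091 bp (rank 7462). The promoter summits of mlt-8 and mlt-10 were the weakest, at 14.19 (rank 11767, −1229 bp) and 13.18 (rank 12624, +6 bp). At mlt-10 replicate 2 had a signal of only 2.417 (rank 25153), at +147 bp. At mlt-8 the strongest promoter summit of replicate 1 was elsewhere, at +35 bp (rank 10187).

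Ranking each replicate alone and keeping its strongest 4944 peaks put a promoter summit at mlt-9 and mlt-11 in replicate 1, beside 18.3% of all genes, and at mlt-9 in replicate 2, beside 19.3%. The strongest pooled signal in the upstream band and in the promoter window can be set side by side for each gene. At mlt-8 it was 97.25 upstream and 14.19 in the promoter, at mlt-10 70.15 and 13.18, at mlt-11 90.13 and 32.24, at acn-1 127.3 and 25.02, and at nas-37 37.91 and 31.66. These 5 genes have a thresholded summit in the band and none in the promoter, so the order is fixed by that and only the sizes are a description. The order was the opposite at mlt-9, with 23.17 upstream and 51.47 in the promoter, and at nas-36, with 14.11 and 28.65. bli-5 had no pooled summit in either.

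**Figure D4:**
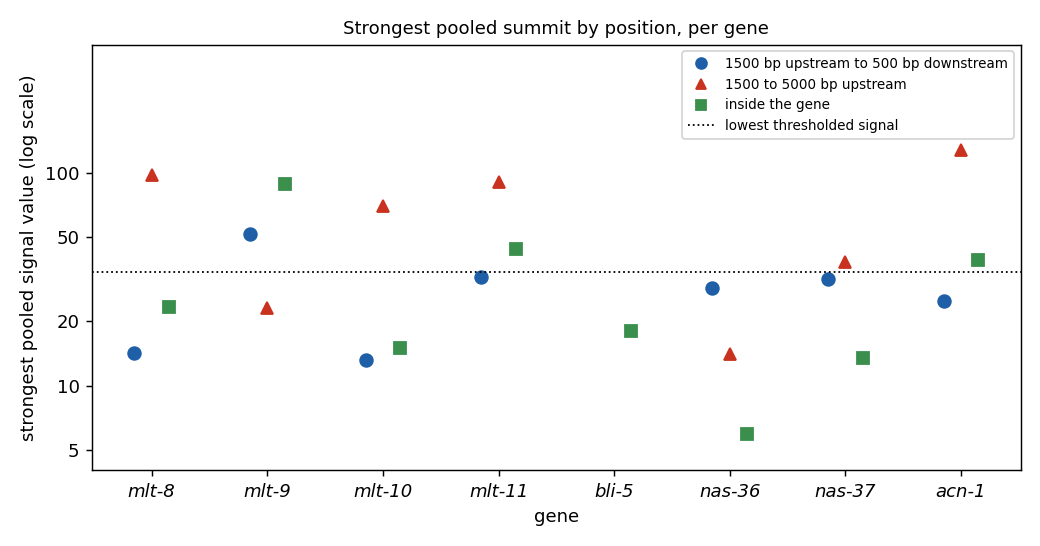
Strongest pooled signal value of each gene (log scale) in the promoter window (blue circles), 1500 to 5000 bp upstream (red triangles) and inside the gene (green squares), with the lowest thresholded signal of 34.23 as a dotted line. Red triangles are uppermost at mlt-8, mlt-10, mlt-11, nas-37 and acn-1, the green square at mlt-9, and the blue circle at nas-36, while bli-5 has only a green square, below the line.

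The replicates were compared through their own lists. Of the 19 summits, 18 lay inside a peak of both replicate lists, where the share over all thresholded summits was 96.5%. With a replicate summit required within 100 bp in each list, the count was 16, and no share over all summits was computed. The thresholded list was made from these replicates, so this recurrence describes it and does not test it. Among the strongest 4944 peaks of both replicates were 11 of the 19, beside 67.4% of all thresholded summits. Replicate 2 ranked 12 of the 18 higher than replicate 1, beside 52.1% of all. Ranks at least 4-fold apart were found at 2 summits, mlt-9 at +2473 bp and acn-1 at −2049 bp, beside 7.92% of all.

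**Figure D5:**
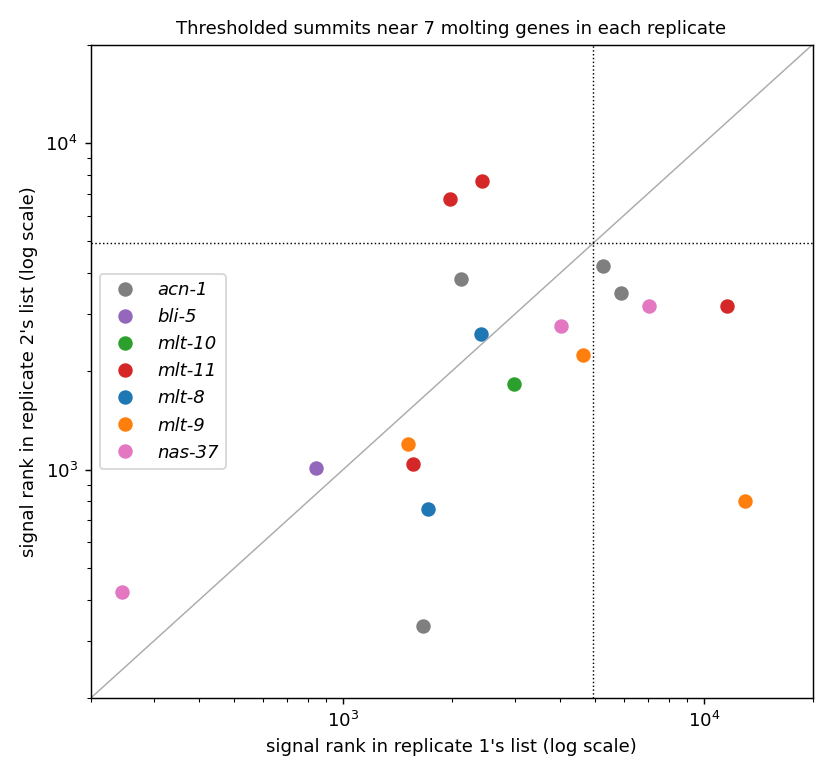
Signal rank of 18 thresholded summits in the lists of replicate 1 (horizontal) and replicate 2 (vertical), both on log scales, coloured by gene; low numbers are strong peaks, the grey line is equal rank and the dotted lines are rank 4944. Most points lie below the grey line, 2 of mlt-11 lie above the upper dotted line, and the point farthest from the grey line is mlt-9, at 12965 and 803.

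The hexamer AGGTCA or GGGTCA was looked for in either orientation up to 50 bp from each summit and was at 6 of the 19 summits. Over all thresholded summits it was at 542 (11%), and in equally wide windows centred 500 bp to either side at 4.25%. Of the 38 such flanking windows of the 19 summits, 1 held it. The 6 summits were both of mlt-8, mlt-11 at −4518 bp, nas-37 at −3298 bp, and acn-1 at −2950 bp and −2049 bp. In 4 of the 5 genes with an upstream band summit, such a summit therefore carried the hexamer, and the exception was mlt-10. Of the 8 upstream band summits, 5 carried it, and mlt-11 counts through its summit at −4518 bp alone. The band was chosen after the distances were seen. No hexamer share was computed over all thresholded summits in such a band, so these counts have no background. On the strand of the molting gene it reads TGACCT at both mlt-8 summits and TGACCC at the others. The downstream mlt-8 sequence is not printed because it lies in a 5′ UTR. In all 6 the hexamer thus runs against the direction of the molting gene. At both acn-1 summits the nearest start is that of vit-2, in the other direction, so there it runs along vit-2. Orientation was not counted over all thresholded summits.

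The hexamers differ in their distance from the summit. At mlt-8 the hexamer spans the summit of the upstream peak, from −1 to 4 bp counted along the gene, and lies from 2 to 7 bp at the downstream peak. At mlt-11 the hexamer lies from 6 to 11 bp. At acn-1 it lies from 35 to 40 bp at the stronger summit and from −31 to −26 bp at the weaker, and at nas-37 from −40 to −35 bp. The ROR element, the hexamer with its AT-rich stretch, was found only at the upstream mlt-8 summit, beside 54 (1.09%) of all summits, 0.283% of all flanking windows and 0 of the 38. It was searched after other results were seen.

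The GA-rich string GAGAGA, a common feature of these peaks, was at 3 of the 19 summits, beside 26.5% of all thresholded summits, 5.51% of all flanking windows and 2 of the 38. At the mlt-9 promoter summit it occurs as overlapping copies in a run of 12 bp that begins at the summit. The others were mlt-11 at −2005 bp and nas-37 at +10772 bp. No summit held both the hexamer and GAGAGA. GC content within 50 bp ranged from 28.71% at acn-1 (+11476 bp) to 54.46% at mlt-8 (−2146 bp), with a median of 45.54% beside 43.56% over all summits. A match says that these letters are present and does not show a binding site.

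Other genes of molting and of the same families were counted by the same rules. Of 37 other astacin genes, 4 had a thresholded promoter summit, beside the background of 19.4%. The strongest was dpy-31, which encodes a procollagen-processing protease, at −644 bp with a signal of 133.4 (rank 546), followed by nas-24 at −832 bp (73.04, rank 1842), nas-23 at −866 bp (48.61, rank 3335) and nas-4 at +42 bp (38.19, rank 4395). The upstream band was filled at 9 of the 37 (24.3%), where the background is 18.0%. Of 12 mltn genes, relatives of mlt-10, 2 had a promoter summit, mltn-8 (161.2, rank 350, −1092 bp) and mltn-1 (39.38, rank 4250, −175 bp), and 3 had one in the upstream band.

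Of 7 genes of the NEKL-MLT kinase complexes and lipoprotein endocytosis, which act inside the epidermis, 1 had a promoter summit, the clathrin adaptor gene dab-1 (64.4, rank 2251, −1478 bp). In the upstream band 3 of the 7 had a summit. Among 10 molting genes of the apical matrix and cuticle the count was 8 in the promoter window and 7 in the band. Over all protein-coding genes the shares are 19.4% in the promoter window and 18.0% in the band. The strongest were lpr-3, a lipocalin-related gene (277.6, rank 68, −121 bp), noah-2, a zona pellucida domain gene (174.5, rank 287, −1291 bp), and the leucine-rich repeat genes sym-1 (140.4, rank 488, −21 bp) and pan-1 (85.75, rank 1376, −492 bp). Only the apical matrix list had most of its genes in the promoter window, and in the upstream band the 8 secreted molting genes, at 5, and the apical matrix genes, at 7 of 10, both had most of theirs. The lists were described by these counts alone and were not compared by a test.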

How the data were processed

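Peaks of eGFP-tagged NHR-23 were measured in 2 biological replicates of whole L3 larvae. Per the labels and the deposited text files, the authors called peaks for each replicate and on both pooled, and derived the thresholded list from these. The authors' signal value of each peak has the caller's own scale and was used only to rank and describe peaks within a list. For the aligner, the peak caller and the cut-off of the IDR (irreproducible discovery rate) procedure, names and versions were not given in the sources used here. The ce10 lists and the control named in the labels were not used. Peak intervals have a median width of 324 bp. No counts are given, so depth is unknown.

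Summits were placed on Ensembl release 115 gene models of WBcel235 (ce11, 1-based), with sequence from the RefSeq genome of that assembly, in Python 3.11.15 with numpy 2.4.6, pandas 2.3.3 and matplotlib 3.10.9. Assignment, distance and motif code was tested on simulated data. Distances of 10 kb were taken from the gene's ends. Trans-splicing is frequent in this species, and an annotated start may therefore be downstream of the real one. Every one of the 8 genes and each of its thresholded summits was described, with the gene of the nearest start, and up to 4 bound genes of each comparison list by strength. The members and lists were chosen with earlier results of these data known. The upstream band, its alternatives, the ROR element and the repeat runs were chosen after seeing the data.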

Additional observations from a re-analysis of the deposited data

How the results depend on the processing

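No paired analysis was possible because the samples form 1 group. Of 33 recomputed counts, 20 stayed within 1.5 times the main count and 13 did not. Of 27 recomputed distances, 14 moved by no more than the SD of the values from the single replicates, 9 moved further, and 4 changed side of the start. This SD rests on 2 values that are themselves among the recomputed distances. It is small where the replicates are close and large where they differ, so these labels are only a description. The count of genes with a promoter summit, 1, became 4 with a window of 3000 bp upstream, 4 by the nearest start within 3000 bp, and 0 with only the 2472 strongest thresholded peaks; it was 1 to 2 when the strongest 4944 peaks of a single replicate were used instead, mlt-11 joining in replicate 1. The count in the upstream band, 5, was 3 from 1500 to 3000 bp, 3 when only summits nearest to the gene's own start were kept, and 4 to 5 by replicate. Genes with a summit nearby, 7, became 4 within 2 kb and were 7 to 8 by replicate. No share of all genes was computed for these recounts, for those of the upstream band or for the 2472 strongest peaks. They therefore have no background to be read against. The 19 summits became 7 within 2 kb and 8 among the 2472 strongest, and were 19 to 20 by replicate. The 18 summits in both replicate lists became 16 with replicate summits within 100 bp, and 11 with only the strongest 4944 peaks of each. The hexamer count, 6, was 3 within 25 bp, 3 among the 2472 strongest and 4 to 6 by replicate; GAGAGA, 3, was 0 among the 2472 strongest and 2 to 3 by replicate. The median distance, 2722 bp, was 4308.5 bp with the 2472 strongest and 2768 to 3146 bp by replicate. The nearest summit passed from upstream to downstream at mlt-9 (2473 bp) with the 2472 strongest. It passed from downstream to upstream at acn-1, with the 2472 strongest and by replicate 1 alone (2049 bp in both), and at nas-36 by replicate 1 alone (8228 bp). By replicate 1 alone it was also at 95 bp for mlt-11 and 9708 bp for nas-37, and by replicate 2 alone at 3407 bp for bli-5, 15093 bp downstream for nas-36 and 766 bp downstream for acn-1. The cause of these shifts was not tested. Without read counts, a peak absent from a list cannot be told apart from one below its limit.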
